A study of Mus musculus with 3 samples.

Results

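The G1 cyclins, the cyclin-dependent kinases (CDKs) they bind, the CDK inhibitor *Cdkn1b* and the retinoblastoma gene *Rb1* were measured in RNA of the embryonic mouse upper jaw. The 10 genes were *Ccnd1*, *Ccnd2*, *Ccnd3*, *Ccne1*, *Ccne2*, *Cdk2*, *Cdk4*, *Cdk6*, *Cdkn1b* and *Rb1*, taken by gene name in the GENCODE M21 annotation from the 55401 gene rows of the deposited counts. All 10 had a row, and all 10 were among the 17115 genes that averaged 10 counts or more per library and were tested. The data were 3 bulk RNA-Seq libraries from maxillary processes, the facial prominences that form the upper jaw, dissected at E10.5 (E for embryonic day) from *Wnt1cre; Rosa26Dlx2/-* mice. In all 3 libraries, Cre recombinase under *Wnt1* control switched on the transcription factor *Dlx2*, tagged with 3xFlag and carried behind a CAG promoter and a stop cassette at *Rosa26*, in cells of neural crest origin. Surface epithelium, endothelium and blood, which do not come from the neural crest, lay outside the reach of this Cre. These *Dlx2*-overexpressing (OE) libraries were labelled as independent RNA samples, and how many embryos each one pooled was not given. All 3 belonged to 1 genotype and 1 age, so no difference between genotypes or stages was tested. The levels and their spread between libraries were described instead.

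In early G1, mitogens raise the D-type cyclins, which bind *Cdk4* or *Cdk6* and begin to phosphorylate the retinoblastoma protein. E-type cyclins with *Cdk2* complete this phosphorylation, the E2F factors held by the retinoblastoma protein are released, and genes of DNA synthesis are transcribed. Kip1, the product of *Cdkn1b*, binds cyclin-CDK complexes and blocks *Cdk2* above all. Facial prominences at this stage grow by division of neural crest-derived mesenchyme, for which passage through G1 is needed.

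The libraries held 36544554, 35351031 and 40057435 counts on genes in OE replicates 1, 2 and 3. Levels are given as counts per 1000000 counts on genes (CPM) after TMM scaling, and 3 counts, taken as the limit of detection, corresponded to 0.0777 to 0.0843 CPM. *Dlx2*, the overexpressed gene, stood at 235, 201 and 183 CPM, and reads of the *Rosa26* allele and of the endogenous gene were counted together. All 8 mesenchyme markers were present, with a summed level of 2047, 2137 and 2760 CPM. Of these 8, 4 were highest in replicate 3. *Barx1* among them, at 332, 409 and 928 CPM, gave most of the higher sum there. The 2 lowest there were *Prrx1* at 629, 582 and 419 CPM and *Pdgfra* at 91.5, 81.3 and 76.1 CPM. The median log2 ratio of the 8 in replicate 3 to the mean of the other libraries was 0.29. It was 0.07 once a dependence of the counts on length and GC content, described with the library comparison, was subtracted. By that subtraction *Barx1* went from 1.33 to 0.49, *Prrx1* from -0.53 to 0.16 and *Pdgfra* from -0.18 to 0.31. By their sums, the markers of most other cells differed more between the libraries, and those of endothelium about as much. The 9 neuron markers summed to 273, 24.3 and 35.9 CPM and each of them was highest in replicate 1, while the 7 pigment cell markers summed to 6.81, 38.4 and 163 CPM and 6 of the 7 were highest in replicate 3. The 7 eye and forebrain markers summed to 25.0, 158 and 146 CPM, and the 6 erythroid markers to 2132, 3990 and 4916 CPM. The epithelium markers summed to 386, 245 and 237 CPM, endothelium to 292, 325 and 241 CPM, macrophage to 22.4, 29.7 and 34.1 CPM and muscle to 10.6, 3.62 and 7.43 CPM. The part of these cells in the levels given here was not tested, and in bulk RNA fewer cells of a type and less RNA per cell cannot be told apart.

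The level of each gene in each library is plotted below on a log scale. *Cdk4* was the most abundant transcript of the group in every library and *Rb1* the least abundant. *Ccnd1*, *Ccnd2*, *Ccne2*, *Cdk2*, *Cdk6*, *Cdkn1b* and *Rb1* stood lowest in replicate 3, and *Cdk4* stood highest there, so the libraries were not ordered alike for all genes. A replicate number is a name only and has no order.

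**Figure D1:**
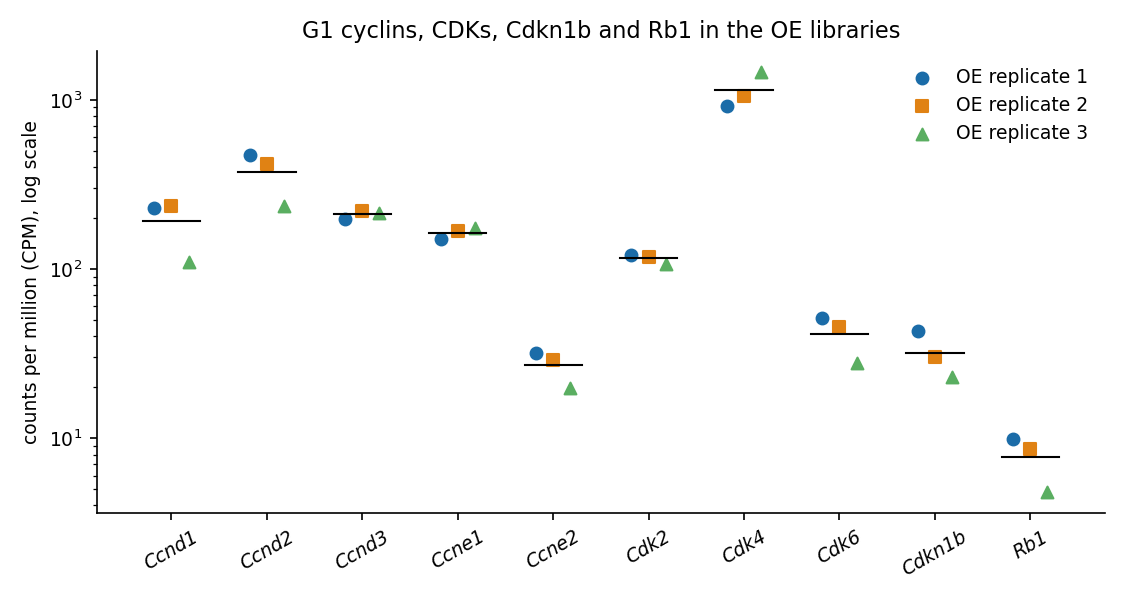
CPM (log axis) of the 10 genes in the 3 OE libraries, with 1 symbol for each library and a black line at the mean of the 3. *Ccnd3*, *Ccne1* and *Cdk2* hold their 3 points close together, whereas the replicate 3 triangle lies well under the other points for *Ccnd1*, *Ccnd2*, *Cdk6* and *Rb1* and above them for *Cdk4*.

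The D-type cyclins are the regulatory subunits that answer to growth factors. *Ccnd1* (chr7:144929931-144939925 of mm10, minus strand) stood at 229, 237 and 110.3 CPM in replicates 1, 2 and 3 (192 ± 71.0, mean ± SD, n = 3). Replicates 1 and 2 lay close together and replicate 3 was 2.15-fold under the higher of them. *Ccnd2* (chr6:127125162-127152193, minus strand) stood at 468, 415 and 236 CPM (373 ± 122, n = 3), a 1.99-fold range with the same library lowest. *Ccnd3* (chr17:47505051-47599691, plus strand) stood at 198, 219.65 and 215 CPM (211 ± 11.7, n = 3). Its 3 libraries stayed within a 1.11-fold range, the narrowest of the 10 genes, and it did not share the low value in replicate 3. GENCODE M21 also holds 1 pseudogene named after *Ccnd3*, so reads that fit both could have been left uncounted.

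The composition of the D cyclins differed with the library. Gene levels were compared with each other per kilobase (kb) of annotated exon, since longer transcripts give more reads. Of the summed D cyclin level per kb, *Ccnd1* held 40.2%, 42.1% and 32.1% in replicates 1, 2 and 3 (38.1% ± 5.33, SD, n = 3). *Ccnd2* held 41.2%, 36.9% and 34.3% (37.5% ± 3.46, n = 3), and *Ccnd3* held 18.6%, 20.9% and 33.6% (24.4% ± 8.07, n = 3). The share of *Ccnd3* was thus the one that differed most, and its highest value fell in the library where the CPM of *Ccnd1* and *Ccnd2* was lowest. With a dependence of the counts on length and GC content subtracted, *Ccnd3* held 19.7%, 21.9% and 30.5% (SD 5.67). *Ccnd1* then held 42.6%, 42.7% and 30.1% (SD 7.27), and its share was the one that differed most. These shares depended on which length was used. Per kb of coding sequence *Ccnd2* held 47.7% and *Ccnd1* 25.5%, and per kb of the longest transcript *Ccnd2* held 35.1%, *Ccnd3* 34.5% and *Ccnd1* 30.3%. By the longest transcript *Ccnd3* led in replicate 3, at 45.5%, so which D cyclin led depended on the length used and on the library.

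The E-type cyclins drive the step from G1 into S phase. *Ccne1* (chr7:38097984-38107534, minus strand) stood at 150.5, 167 and 174 CPM (164 ± 12.1, n = 3), and *Ccne2* (chr4:11191351-11204779, plus strand) at 31.9, 29.0 and 19.9 CPM (26.9 ± 6.27, n = 3). *Ccne1* was lowest in replicate 1 and highest in replicate 3, with a range of 1.16-fold, and *Ccne2* was lowest in replicate 3, with a range of 1.60-fold. Per kb of exon *Ccne1* made up 86.1%, 88.3% and 92.0% of the E cyclin level (88.8% ± 2.98, n = 3), and per kb of coding sequence 84.7%. *Ccne1* was the main E cyclin in every library under each of these lengths.

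Among the kinase subunits, *Cdk4* stood far above the others. *Cdk4* (chr10:127063534-127067920, plus strand) stood at 917, 1046 and 1464 CPM (1142.5 ± 286, n = 3). Replicate 3 was the highest and replicate 1 the lowest, a range of 1.60-fold. By mean CPM it ranked 81 of all 55401 genes, and per kb of exon it lay above 99.3% of the tested genes. *Cdk6* (chr5:3341485-3531008, plus strand), which binds the same cyclins, stood at 51.1, 45.15 and 27.7 CPM (41.3 ± 12.2, n = 3), lowest in replicate 3 over a 1.85-fold range. Per kb of exon, *Cdk4* therefore held 98.7%, 99.0% and 99.6% of the *Cdk4* and *Cdk6* level (99.1% ± 0.427, n = 3), and 96.5% per kb of coding sequence. *Cdk2* (chr10:128697939-128705031, minus strand), the partner of the E cyclins, stood at 121, 118 and 107 CPM (115 ± 7.39, n = 3). Its libraries lay within 1.13-fold of each other.

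*Cdkn1b* encodes a brake on these kinases, and *Rb1* encodes the pocket protein that they phosphorylate. *Cdkn1b* (chr6:134920401-134925513, plus strand) stood at 42.9, 30.1 and 23.1 CPM (32.05 ± 10.04, n = 3). Replicate 1 was the highest, by 1.86-fold over replicate 3. Replicate 1 was also the library with the highest neuron and glia markers. The 5 glia and Schwann cell precursor markers summed to 97.6, 24.6 and 25.6 CPM. Of the 9 neuron markers, 8 were lowest in replicate 2, while *Cdkn1b* was lowest in replicate 3. The summed epithelium level was highest in replicate 1 too, with 5 of the 7 markers highest there. The other 2, *Krt18* and *Krt5*, were highest in replicate 3. The part of these cells in the *Cdkn1b* level was not tested. *Rb1* (chr14:73183673-73325822, minus strand) stood at 9.90, 8.63 and 4.83 CPM (7.78 ± 2.64, n = 3), from 382, 307 and 182 counts, the fewest of the 10 genes. Replicates 1 and 2 were close and replicate 3 was 2.05-fold under replicate 1.

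Relatives of these genes were read beside them. Among the 3 pocket protein genes, *Rbl1* stood at 36.4, 34.2 and 20.8 CPM and *Rbl2* at 5.86, 4.52 and 3.37 CPM, both lowest in replicate 3 as *Rb1* was. Per kb of exon *Rb1* held 19.4%, 18.5% and 17.04% of the family level (18.3% ± 1.19, n = 3) and *Rbl1* 72.9% ± 1.24, so the family was made up much alike in the 3 libraries although the level of each member differed. *Cdkn1b* is 1 of 3 Cip/Kip inhibitors. It held 11.7%, 8.85% and 4.71% of their level per kb (8.43% ± 3.53, n = 3), and *Cdkn1c*, an imprinted inhibitor, held 80.3%, 86.5% and 93.8% (86.9% ± 6.73, n = 3). *Cdkn1c* itself stood at 131, 132 and 206 CPM, highest in the library where *Cdkn1b* was lowest. Its log2 ratio in replicate 3 to the mean of the other libraries was 0.64, and -0.0048 once a dependence on length and GC content was subtracted. Per kb of coding sequence the shares were 23.9% for *Cdkn1b* and 63.5% for *Cdkn1c*, so the size of the gap depended on the length. With the dependence on length and GC content subtracted, *Cdkn1b* held 8.85%, 7.66% and 7.44% in the 3 libraries, a narrower spread. The composition of the families is drawn as stacked bars.

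**Figure D2:**
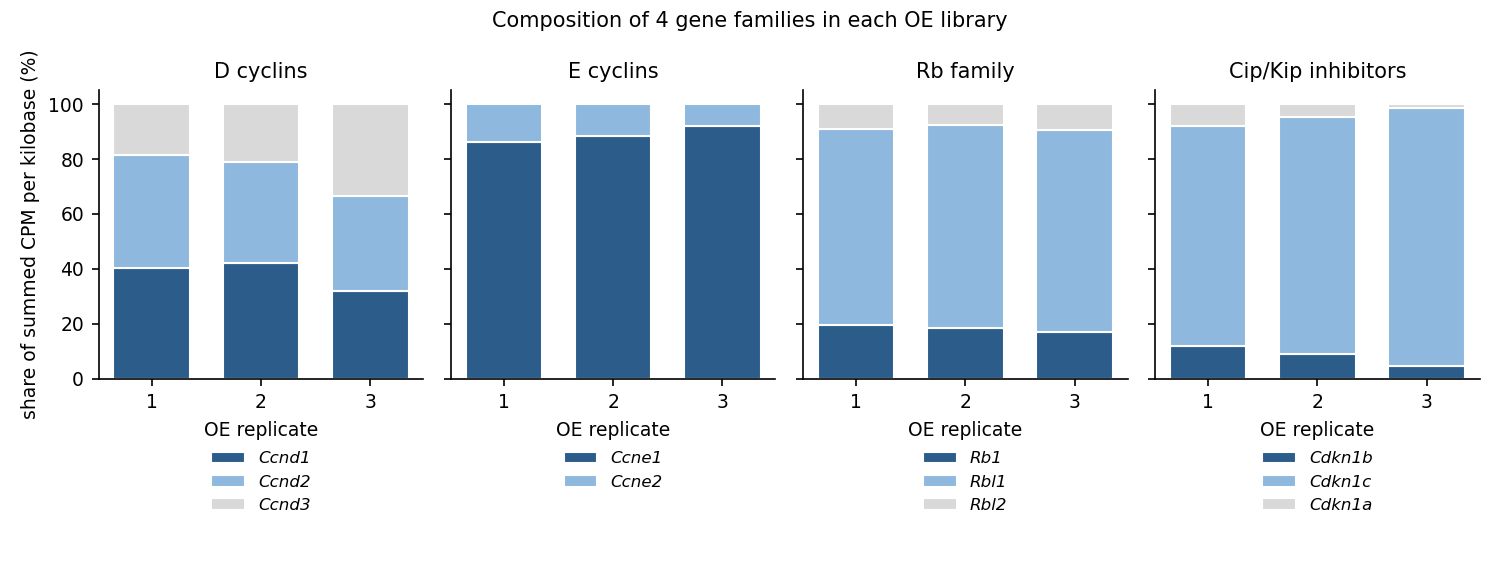
Share (%) of the summed CPM per kb of exon held by each gene of the D cyclins, the E cyclins, the Rb family and the Cip/Kip inhibitors, with 1 stacked bar for each OE library. The *Ccnd3* part is widest in replicate 3 (33.6%), *Ccne1* and *Rbl1* fill most of their bars throughout, and the *Cdkn1b* part is widest in replicate 1 (11.7%).

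Ordered by mean level per kb of exon, the group ran from *Cdk4* at 352 ± 88.0 CPM per kb through *Ccne1* at 61.6 ± 4.55, *Ccnd1* at 40.8 ± 15.1, *Ccnd2* at 39.7 ± 12.97, *Ccnd3* at 24.0 ± 1.33, *Cdk2* at 18.6 ± 1.19, *Ccne2* at 7.71 ± 1.79, *Cdkn1b* at 7.04 ± 2.21 and *Cdk6* at 2.95 ± 0.870 to *Rb1* at 1.29 ± 0.438 (SD, n = 3). A neighbouring pair was called apart where the order was the same in every library and the ranges did not overlap. By this rule 7 of the 9 pairs were apart. *Ccnd1* and *Ccnd2* were not, at 48.7, 50.4 and 23.4 against 49.8, 44.2 and 25.0 CPM per kb, and neither were *Ccne2* and *Cdkn1b*. *Ccnd2* and *Ccnd3* were apart by very little, the lowest *Ccnd2* value of 25.04 lying just over the highest *Ccnd3* value of 25.03 CPM per kb. An exact sign-flip permutation test over 3 libraries cannot give a p below 0.25, so the pairs carry none. With the longest transcript or the coding sequence as the length, 5 of the 9 neighbouring pairs were apart. *Cdk4* was first and *Rb1* last under each length, but per kb of coding sequence *Ccnd2* at 403 ± 132 CPM per kb came next after *Cdk4*, and *Ccne1* at 123 ± 9.12 came after *Ccnd3* at 212 ± 11.8.

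**Figure D3:**
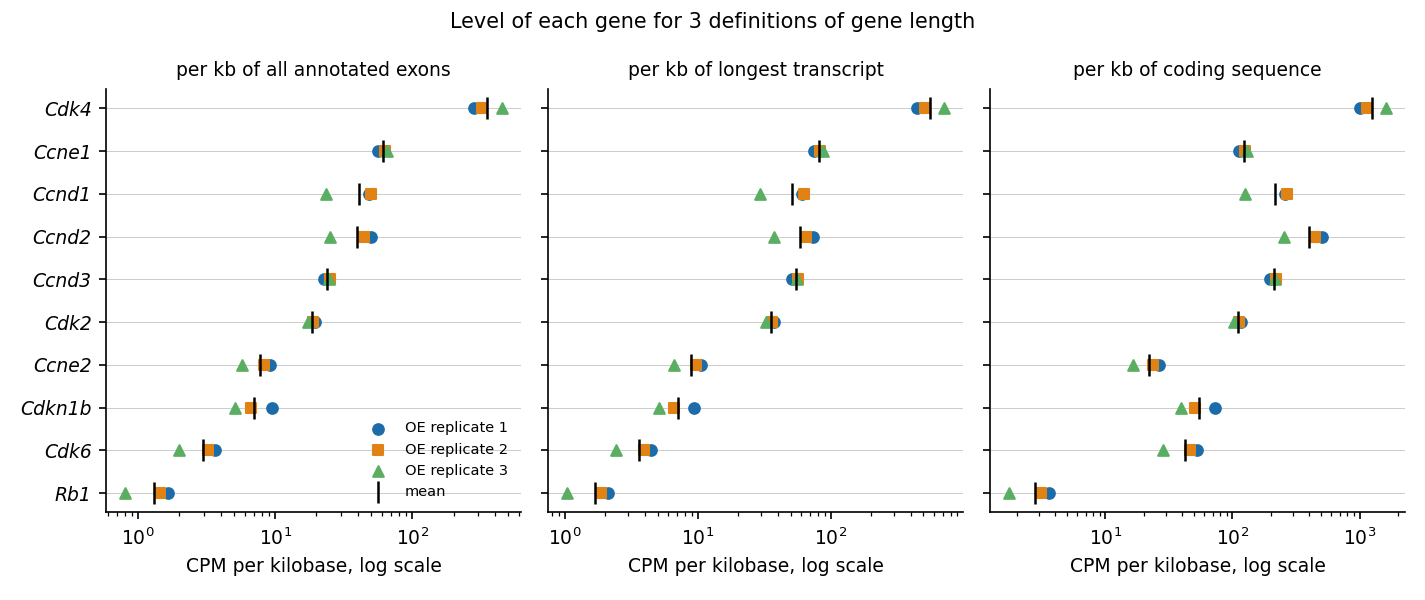
CPM per kb (log axis) of the 10 genes in the 3 OE libraries, with length taken as all annotated exons, the longest transcript or the coding sequence, and a black bar at the mean. *Cdk4* lies to the right of all others and *Rb1* to the left in each panel, while *Ccne1*, *Ccnd1*, *Ccnd2* and *Ccnd3* change places between panels.

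Summed by role, the 3 D cyclins stood at 0.423, 0.367 and 0.161 of the level of *Cdk4* and *Cdk6* per kb in replicates 1, 2 and 3. The summed D cyclins stood at 121, 119.5 and 73.0 CPM per kb and the kinases at 286, 325 and 453 CPM per kb, so replicate 3 had both the lowest cyclin sum and the highest kinase sum. The 2 E cyclins stood at 3.37, 3.76 and 4.13 times the level of *Cdk2*, and *Cdk4* and *Cdk6* together at 30.3, 49.1 and 89.2 times the level of *Cdkn1b*. The sizes of these ratios depended on the length used. Per kb of coding sequence the D cyclins stood at 0.908, 0.783 and 0.363 of the kinase level, the E cyclins at 1.19, 1.32 and 1.43 times *Cdk2*, and the kinases at 14.6, 23.5 and 41.9 times *Cdkn1b*. Per kb of the longest transcript the means over the libraries were 0.316, 2.58 and 88.8. The differences between libraries moved with a dependence of the counts on exonic length and GC content, described with the library comparison. With it subtracted, per kb of all exons, the D cyclins stood at 0.365, 0.349 and 0.196 of the kinases and the kinases at 36.7, 53.7 and 66.9 times *Cdkn1b*, both with a narrower spread. The E cyclins then stood at 3.96, 3.99 and 3.27 times *Cdk2*, with replicate 3 the lowest library in place of the highest. These are ratios of transcripts and say nothing of the proteins.

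The share of a gene's reads that can be assigned depends on its neighbours. Exons of 8 of the 10 genes overlapped exons of a gene on the opposite strand, and only *Ccne1* and *Cdkn1b* shared no exonic base. The library kit is not described as marking strand and the strand setting of the counting was not given, so reads in shared bases cannot be attributed, and reads over more than 1 gene were left uncounted (6.10% to 6.96% of reads over all genes). The largest shared parts were 23.4% of the exonic bases of *Ccnd1*, with *LTO1* (1100 bases, none coding), 19.7% of *Cdk4*, with *Tspan31* (641 bases, none coding), 17.4% of *Ccne2*, with *Ints8* (609 bases, 135 of them coding), and 14.9% of *Rb1*, with *Rcbtb2* (488 bases, 105 of them coding) and *Lpar6* (408 bases). *Ccnd2* shared bases with *Gm43126* and *9330179D12Rik*, *Ccnd3* with *Bysl*, *Cdk2* with *Pmel* and *Cdk6* with *Gm17590*, from 0.547% of exonic bases for *Cdk2* to 7.87% for *Ccnd2*. The bases *Cdk6* shared with *Gm17590* held 11.2% of its coding sequence, and *Gm17590* had 0 counts in every library. *LTO1* stood at 20.96, 19.4 and 21.3 CPM and did not share the low value of *Ccnd1* in replicate 3. *Ints8* stood at 88.9, 89.9 and 39.4 CPM and was lowest in replicate 3, as *Ccne2* was. *Rcbtb2* at 165, 157 and 106.5 CPM and *Lpar6* at 35.99, 27.03 and 20.8 CPM were lowest there too, as *Rb1* was. *Tspan31* at 45.6, 47.1 and 55.1 CPM was highest in replicate 3, as *Cdk4* was, and *Bysl* stood at 92.4, 104 and 93.7 CPM. *Pmel*, a pigment cell gene, stood at 0.363, 5.98 and 71.8 CPM while *Cdk2*, which shares 34 bases with it, stayed within 1.13-fold.

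Promoter sequence was available for 6 of the genes (*Ccnd3*, *Ccne1*, *Cdk2*, *Cdk4*, *Cdk6* and *Cdkn1b*) and was searched on both strands for an E-box bound by Myc and related factors (CACGTG), the GC box (GGGCGG), one E2F site (TTTCCCGC), a different form of it (TTTGGCGC), the CCAAT box and the TATA box (TATAAA). *Ccnd1*, *Ccnd2*, *Ccne2* and *Rb1* had no entry. Windows of 250 bases upstream of the RefSeq start on GRCm38.p6 are shown for *Cdk4*, the most abundant of the group, and for *Cdk2* and *Ccne1*, a kinase and its cyclin whose levels differed little between libraries. Each is written 5′ to 3′ on the strand of its gene. Capitals mark the E-box, the GC box, the E2F site and the CCAAT box or their reverse complements, and none of the marked runs overlap.
*Cdk4* (chr10:127063285-127063534, plus strand): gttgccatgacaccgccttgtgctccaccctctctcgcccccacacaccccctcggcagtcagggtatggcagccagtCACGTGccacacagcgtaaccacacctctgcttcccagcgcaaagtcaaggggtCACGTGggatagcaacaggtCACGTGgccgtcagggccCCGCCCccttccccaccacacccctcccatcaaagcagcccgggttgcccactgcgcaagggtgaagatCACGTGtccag
*Cdk2* (chr10:128705052-128705301, minus strand): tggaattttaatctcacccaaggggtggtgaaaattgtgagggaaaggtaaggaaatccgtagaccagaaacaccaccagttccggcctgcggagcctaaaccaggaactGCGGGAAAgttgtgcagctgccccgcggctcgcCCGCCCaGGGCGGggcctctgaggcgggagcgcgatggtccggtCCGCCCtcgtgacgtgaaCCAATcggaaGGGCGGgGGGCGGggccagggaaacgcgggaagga
*Ccne1* (chr7:38107491-38107740, minus strand): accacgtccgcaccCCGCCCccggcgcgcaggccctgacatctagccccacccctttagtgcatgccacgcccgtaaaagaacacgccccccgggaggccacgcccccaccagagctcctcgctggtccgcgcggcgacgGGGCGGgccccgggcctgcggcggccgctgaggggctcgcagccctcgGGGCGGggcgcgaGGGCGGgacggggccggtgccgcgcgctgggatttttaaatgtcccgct

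The *Cdk4* window held 4 copies of CACGTG, beginning 172, 118, 98 and 11 bases upstream of the start, and 1 GC box. Of the 32851 mouse promoter windows of the same length, 6.02% held CACGTG at least once and 7 windows (0.0213%) held 4 or more. The *Cdk6* window held CACGTG 1 time and the windows of the other members with an entry not at all. The *Cdk2* window held 5 GC boxes, 1 TTTCCCGC beginning 140 bases upstream, and 1 CCAAT. TTTCCCGC was found in 0.895% of all windows and in no other of the 7 windows of these 6 genes, and TTTGGCGC (0.417% of all windows) in none of them. The *Ccne1* window held 4 GC boxes, and 4.09% of all windows held 4 or more, while 32.7% held at least 1. CCAAT occurred in 33.8% and TATAAA in 12.4% of all windows, the latter once in that of *Cdk6*. All 7 windows were GC-rich, from 59.6% for a *Ccnd3* window to 76.0% for *Ccne1*, against a median of 52.4% over all windows. A match is a description of letters, and no binding was measured in these libraries.

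Differences between the libraries were compared with counting noise, using a chi-square test of the 3 counts of each gene against the scaled library sizes. All 10 genes varied beyond counting noise, against 81.5% of the 17115 tested genes and 93.1% of the 9906 genes averaging as many counts as *Rb1* or more, so the count did not set the group apart at this depth. The largest adjusted p of the 10 was 3.08e-08 (Benjamini-Hochberg over all tested genes), for *Cdk2*. These p-values measure only the spread between these samples. Without replicate 3, 7 of the 10 passed, against 48.8% of all genes tested in that setting, and *Ccnd1* (adjusted p = 0.0519), *Cdk2* (0.236) and *Rb1* (0.127) did not. Without replicate 1, 9 of the 10 passed, against 71.2%, and *Ccnd3* did not (adjusted p = 0.247). The shares with a replicate left out cover all genes averaging 10 counts or more, and none was computed over genes of like counts.

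In size, 7 of the 10 genes had a range of at least 1.5-fold over the libraries, against 62.2% of the tested genes. Those 7 were *Ccnd1*, *Ccnd2*, *Ccne2*, *Cdk4*, *Cdk6*, *Cdkn1b* and *Rb1*. The median SD of log2 CPM was 0.40 for the group and 0.39 over all tested genes. Lowest in replicate 3 were 7 of 10, namely *Ccnd1*, *Ccnd2*, *Ccne2*, *Cdk2*, *Cdk6*, *Cdkn1b* and *Rb1*, against 45.6% of the tested genes. Highest there were *Cdk4* and *Ccne1*, 2 of 10, against 43.2%. Among genes within 20% of a member's exonic length, the share lowest in replicate 3 ran from 32.6% for *Ccne1* to 79.8% for *Cdk6*. The count of 1.5-fold ranges rested on that library, since without replicate 3 it was 0 of 10, against 17.3% of all tested genes. Without replicate 1 it was 4, against 44.3%, and without replicate 2 it was 7, against 56.5%. These shares of 1.5-fold ranges cover all 17115 tested genes, of which 9906 averaged as many counts as *Rb1* or more. Counting error widens the range of a gene with few counts, and no such share over genes of like counts was computed. With totals left unscaled, which moved the median log2 ratio of all genes by -0.13 in replicate 3, *Ccnd3* was also lowest there and the count was 8.

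Exonic length moved with these differences. For each library, the log2 ratio of a gene's CPM to the mean of the other 2 libraries was set against its exonic length. Over all tested genes the median ratio in replicate 3 fell from 0.81 for genes of up to 1000 exonic bases to -0.68 for those over 14000, while in replicate 1 it went from -0.58 to 0.53 and in replicate 2 from -0.18 to 0.19. The 10 genes had a median of 5362 exonic bases, against 3871 for all tested genes, and a median log2 ratio in replicate 3 of -0.62, against -0.03. *Cdk6*, the longest at 13989 bases, had a ratio of -0.79 in replicate 3, where genes within 20% of its length had a median of -0.61. *Ccnd1* at 4709 bases had -1.08 against -0.11, and *Rb1* at 6015 bases had -0.93 against -0.25. *Cdk4* at 3249 bases had 0.58 against 0.09, and *Ccnd3* at 8775 bases had 0.05 against -0.48, so both lay above genes of their length in that library. This comparison took no account of GC content, which at 56.7% was highest in *Ccnd3* among the 10 genes. In replicate 1, *Cdkn1b* at 4552 bases had 0.70 against 0.05.

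**Figure D4:**
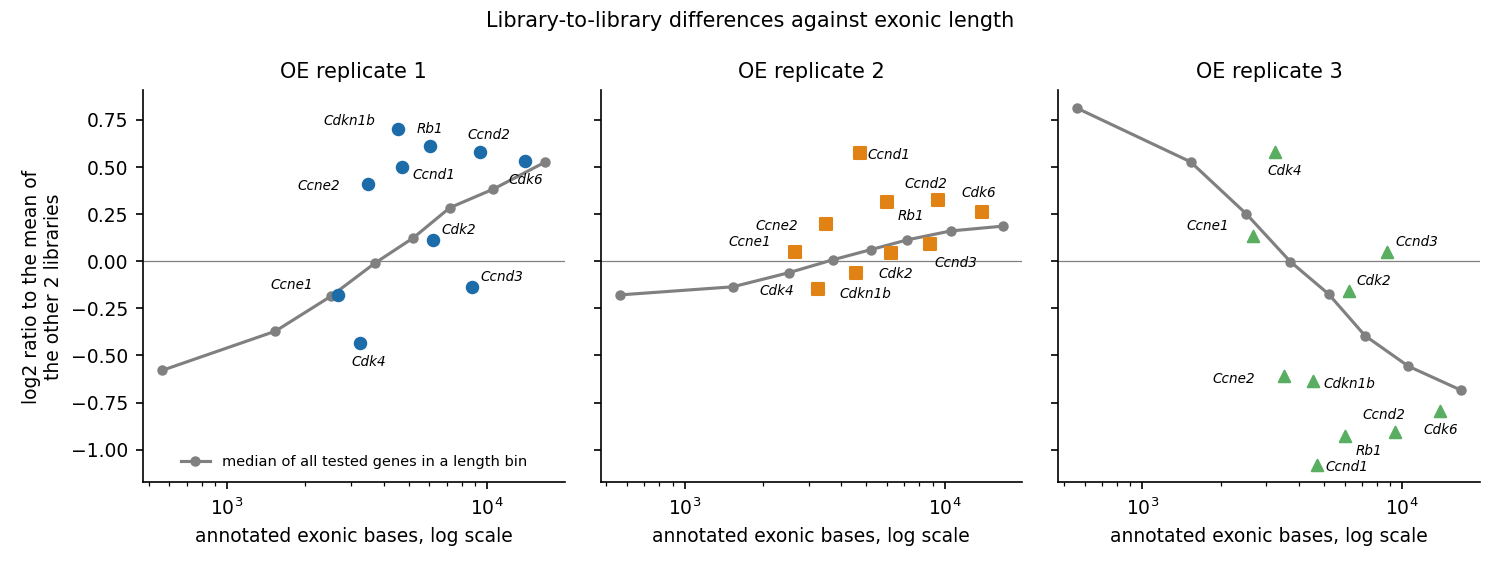
Log2 ratio of each library to the mean of the other 2 against annotated exonic bases (log axis), with grey points joined for the median of all tested genes in 8 length bins and coloured symbols for the 10 genes. In replicate 3 the grey line falls from 0.81 to -0.68, *Ccnd1* lies far under it at -1.08 and *Cdk4* above it at 0.58.

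The dependence of the ratio on GC content and exonic length was then fitted by a smooth curve over all tested genes in each library and subtracted. After this, 1 of the 10 genes, *Ccnd1* at 2.06-fold, still had a range of at least 1.5-fold, against 47.2% of all tested genes. That share, too, was not limited to genes of like counts. The log2 ratio of *Ccnd1* in replicate 3 went from -1.08 to -1.01. That of *Ccnd2* went from -0.90 to -0.39, of *Cdk6* from -0.79 to -0.12, of *Ccne2* from -0.61 to -0.19, of *Cdkn1b* from -0.64 to -0.23 and of *Rb1* from -0.93 to -0.36, each keeping its sign at a smaller size. *Cdk4* kept a positive ratio there, 0.58 before and 0.36 after, and *Ccnd3* stayed at 0.05. The small ratios of *Ccne1* (0.13 to -0.13) and *Cdk2* (-0.16 to 0.14) in replicate 3 changed sign. In replicate 1, the ratio of *Cdkn1b* went from 0.70 to 0.42 and was the largest of the group in that library apart from *Ccnd1* at 0.45.

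**Figure D5:**
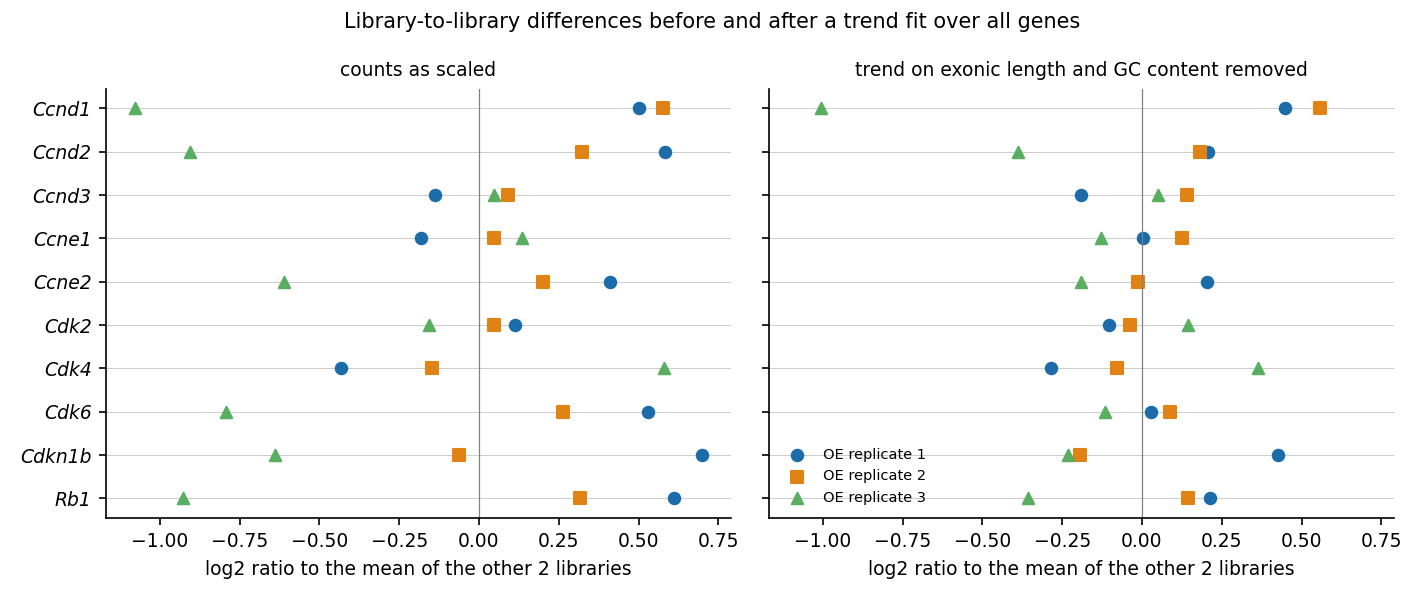
Log2 ratio of each OE library to the mean of the other 2 for the 10 genes, from the scaled counts (left) and after the fitted dependence on GC content and exonic length was subtracted (right). Most points move towards 0 on the right, while the replicate 3 triangle of *Ccnd1* stays at -1.01 and that of *Cdk4* at 0.36.

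Some of the 10 genes had near-identical patterns over the 3 libraries, and the distance between centred log2 CPM values was used to describe this. *Ccnd2* and *Rb1* were the closest pair, at a distance of 0.026, followed by *Ccnd3* and *Ccne1* at 0.070 and *Ccnd2* and *Cdk6* at 0.091. *Ccnd1* and *Cdk4* were the farthest apart, at 1.36. Within a distance of 0.1 of *Rb1* lay 508 of the 17115 tested genes, and within the same distance of *Ccnd2* 530. Fewer lay within it of *Ccnd1* (74) and to *Cdkn1b* (127).

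The rest of the G1 control pathway was read from lists of its regulators. Over all tested genes, 81.5% varied beyond counting noise, 62.2% had a range of at least 1.5-fold and 45.6% were lowest in replicate 3. The counts of each list are to be read against these shares, which also cover genes averaging as few as 10 counts. Of 33 such genes, 31 were tested, 29 varied beyond counting noise, 15 had a range of at least 1.5-fold and 18 were lowest in replicate 3. Their median log2 ratio in replicate 3 was -0.27, and -0.06 after trend removal. All 10 E2F and DP genes, whose products bind cell cycle promoters and of which only some bind pocket proteins, were tested and all varied beyond noise. By mean CPM, the measure used for every list here, the most abundant of them was *Tfdp1*, a DP subunit shared by many E2F complexes, at 307, 298 and 173 CPM, and the least abundant was *E2f8*, a repressor that does not bind pocket proteins, at 29.5, 31.7 and 21.7 CPM. Among them, 7 of 10 were lowest in replicate 3, *Tfdp1* and *E2f8* included.

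Of the 6 other CDK inhibitors, 4 were tested, with a median level of 16.8 CPM against 14.03 CPM over all tested genes. *Cdkn1c* was the most abundant of them and *Cdkn2c*, an INK4 inhibitor of *Cdk4* and *Cdk6*, the least abundant that was tested, at 1.06, 1.63 and 1.19 CPM, which did not pass the test against counting noise (adjusted p = 0.0965). *Cdkn2a* had 0, 1 and 0 counts. *Cdkn2b*, named after its values were seen, had 8, 0 and 7 counts and was not tested. *Cdkn1a*, named because it completes the Cip/Kip family, stood at 22.7, 12.3 and 5.81 CPM, a range of 3.90-fold with replicate 3 lowest.

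Among 9 genes that activate CDKs or turn over cyclins and Kip1, 8 varied beyond noise and 1 had a range of at least 1.5-fold. By mean CPM *Cks1b*, a cofactor of Kip1 degradation, was the most abundant at 172, 193 and 225 CPM. *Fbxw7*, the ubiquitin ligase subunit that recognises cyclin E, was the least abundant at 27.4, 26.3 and 30.2 CPM. Of 6 subunits of the DREAM and MuvB complexes, which join pocket proteins to cell cycle promoters, all 6 varied beyond noise and 3 had a range of at least 1.5-fold. The most abundant by mean CPM was *Rbbp4*, a histone-binding protein, at 600.1, 574 and 446 CPM, and the least abundant was *Lin52* at 17.4, 15.7 and 13.8 CPM.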

How the data were processed

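Maxillary process RNA of 3 OE samples was measured. The authors deposited raw read counts per gene, as whole numbers without normalization. The submitters' processing notes name FastQC, STAR 2.7.3a, HTSeq 0.12.4 and mm10, while the annotation release and the strand setting were not given in the sources used here. Rows that name no gene held 14.2%, 15.7% and 16.4% of counted reads in replicates 1, 2 and 3 and were left out of library sizes. Replicates were numbered in accession order. Of 55401 gene identifiers, 55141 matched GENCODE M21, which gave names, coordinates, exonic lengths and shared bases.

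Libraries were scaled with TMM factors of 1.06, 1.01 and 0.940 from edgeR 4.0.16 (R 4.3.3). Genes averaging 10 counts or more were tested for variation beyond counting error by a chi-square test with 2 degrees of freedom and Benjamini-Hochberg adjustment at 0.05 over all of them. Log2 values used a prior count of 2. The trend was fitted with mgcv 1.9.3, and DESeq2 1.42.0 gave alternative size factors. Motifs were searched in RefSeq promoter windows with Python 3.11.15. The steps were tested on simulated data.

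The 10 genes and all gene lists were chosen with earlier results of these data known. All 10 were named, and from each pathway list the most and the least abundant tested gene and any gene with 3 counts or fewer in every library, with *Dlx2* and genes sharing exonic bases with the 10. Alternatives were other scalings, lengths, prior counts and filters, trend removal and leaving out each replicate. The exonic length shares of the Rb family and the Cip/Kip inhibitors, the background over genes with more counts, the count of genes lowest in replicate 3 under each scaling, the ratios between roles under each length, and shares and ratios after trend removal were added after the data were seen. Wild-type libraries were not analysed here. The limit of 3 counts covers counting error only.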

Additional observations from a re-analysis of the deposited data

How the results depend on the processing

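Over 57 results and 260 alternative values, 225 moved by no more than the spread between libraries, or by no more than 1.5 times for a count, and 35 moved further. The sign changed in 7 single-gene log2 ratios, none larger than 0.20 in size, 6 of them on trend removal (*Ccne1* in replicates 1 and 3, *Ccne2* in replicate 2 and *Cdk2* in all 3) and that of *Ccnd3* in replicate 3 without scaling. The share of genes beyond counting noise was 53.4% with all genes of at least 1 count. Leaving out a replicate gave 48.8% to 77.7%, and 0 to 7 genes of the group with a 1.5-fold range, and that count was 1 after trend removal. The share of *Ccnd1* in the D cyclins was 30.3% per longest transcript and 25.5% per coding sequence, of *Ccnd2* 47.7% per coding sequence and of *Ccnd3* 34.5% per longest transcript. Per coding sequence *Cdk4* held 96.5% of *Cdk4* and *Cdk6*, *Ccne1* 84.7% of the E cyclins, *Rb1* 20.3% and *Rbl1* 69.8% of the Rb family (70.8% per longest transcript), and *Cdkn1b* 23.9% and *Cdkn1c* 63.5% of the Cip/Kip inhibitors. *Rb1*, with 182 to 382 counts a library, is the least precisely measured of the 10 genes, and 3 libraries of 1 group limit every statement on spread. No paired analysis was possible because there is only 1 group.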

Other observations

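Genes that act after the G1 step were read in the same libraries. Of 15 genes of S phase and E2F response, 14 varied beyond counting noise, 6 had a range of at least 1.5-fold and 10 were lowest in replicate 3, against 81.5%, 62.2% and 45.6% of all tested genes. Their median log2 ratio in replicate 3 was -0.06, against -0.62 for the 10 G1 genes and -0.03 for all tested genes. After the dependence on length and GC content was subtracted, it was -0.07, against -0.16 for the G1 genes and 0.01 for all tested genes. The most abundant by mean CPM was *Mcm7*, a subunit of the replicative helicase, at 464, 511 and 518 CPM, and the least abundant was *Cdc6*, a helicase loading factor, at 82.1, 77.5 and 53.4 CPM. *Mcm7* was lowest in replicate 1 and *Cdc6* in replicate 3.

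Of 12 genes of G2 and mitosis, all 12 varied beyond counting noise, 2 had a range of at least 1.5-fold and 7 were lowest in replicate 3, to be read against the same shares. Their median log2 ratio there was -0.21, and -0.14 after that subtraction. By mean CPM *Top2a*, the topoisomerase of dividing cells, was the most abundant at 576, 576 and 520.1 CPM, and *Ccnb2*, a mitotic cyclin, the least abundant at 98.2, 101 and 108 CPM. The S phase list summed to 4374, 4585 and 3958 CPM and the mitotic list to 2821, 2821 and 2563 CPM, against 2220, 2316 and 2382 CPM for the 10 G1 genes, to which *Cdk4* gave 917, 1046 and 1464 CPM. With 3 libraries of 1 genotype, none of these values was tested against another condition.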
